A study of Caenorhabditis elegans with 2 samples.

Results

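Translation initiation factors, elongation factors and aminoacyl-tRNA synthetases were examined in peak lists from a chromatin immunoprecipitation sequencing (ChIP-seq) experiment on MLS-2, an HMX-family homeodomain protein of Caenorhabditis elegans. The set held 62 of 19973 protein-coding genes on nuclear chromosomes. Membership went by gene name in the Ensembl annotation: a name starting with eif- or eef-, or 1 letter followed by ars-1 or ars-2. It comprised 31 factors and 31 synthetases. The set itself was selected on the promoter summits and signals of these genes in the optimal list, so counts and signals from that list, and from the replicate lists behind it, are given as a description with no test.

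Worms of strain OP645 carried the integrated transgene wgIs645, which encodes MLS-2 with GFP-FLAG at its C terminus, in an unc-119(tm4063) background. Mixed-stage embryos of both sexes were collected 2 h after egg bleaching, and 1 group of 2 biological replicates was precipitated with anti-GFP. This is a single integrated line, the labels do not say in which cells it is expressed, and whole embryos mix cells with and without the tagged protein. There was no second condition, and no untagged or input list was analysed here. A peak at a gene is therefore a region of anti-GFP enrichment in these embryos, and says nothing of the gene's expression. The lists hold no read totals, so the depth behind each signal is unknown, and with 2 replicates the spread is shown by giving each one.

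Initiation factors bring the first methionyl-tRNA and the small ribosomal subunit to the start codon. eIF3 is the large scaffold of that step, eIF2 is the GTPase that carries the initiator tRNA, and eIF2B recharges eIF2 with GTP. Elongation factors then deliver each charged tRNA (eEF1A, with eEF1B as its nucleotide exchange factor) and move the ribosome along (eEF2). Aminoacyl-tRNA synthetases load each tRNA with its amino acid, in the cytosol and, through separate or shared genes, in mitochondria.

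A summit of an optimal peak lay in the promoter window of 12 of the 62 genes (19.4%), against 5.64% of all protein-coding genes. The window covered 1000 bp before and 100 bp after a transcript start, taken over all protein-coding transcripts of the gene. The 12 genes were unevenly placed among the roles: 10 of the 31 factors (32.3%) and 2 of the 31 synthetases (6.45%, close to the 5.64% of all genes). By role, 5 of 11 eIF3 subunits and 3 of 6 elongation factors carried a summit. The other initiation factors gave 1 of 6, eIF2B gave 1 of 5 and eIF2 gave 0 of 3. Each of the 12 genes had its own peak.

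The bases under the summits on chromosomes II, III, IV and X are shown because the peaks of these genes centre on them. They run from the strongest of the set (ears-2) to the weakest (eif-1.A). They are shown also because the summits of eef-1A.1 and eif-2Bgamma lie within 200 bp of small RNA genes. Each sequence is the 101 bp centred on the summit, from the WBcel235 (ce11) genome. It reads 5′ to 3′ on the strand of the named gene. Capitals mark matches to the motifs searched, described further on: CGCG in ears-2, eif-3.D, eif-3.B and eif-1.A, GAGAGA in eef-1A.1, and the reverse complement of GGGCGG, the last stretch of capitals, in eif-1.A.
ears-2 (chrIV:390455-390555, minus strand): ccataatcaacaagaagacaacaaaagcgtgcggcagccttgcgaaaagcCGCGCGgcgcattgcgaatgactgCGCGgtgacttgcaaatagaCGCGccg
eef-1A.2 (chrX:7823270-7823370, plus strand): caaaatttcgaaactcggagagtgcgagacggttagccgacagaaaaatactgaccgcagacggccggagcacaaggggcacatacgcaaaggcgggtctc
eef-1A.1 (chrIII:6972061-6972161, minus strand): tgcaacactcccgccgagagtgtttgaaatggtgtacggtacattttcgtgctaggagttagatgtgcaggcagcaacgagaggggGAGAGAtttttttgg
eif-3.D (chrIII:8971781-8971881, minus strand): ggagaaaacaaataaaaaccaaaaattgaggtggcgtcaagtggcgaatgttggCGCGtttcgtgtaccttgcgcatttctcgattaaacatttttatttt
eif-3.B (chrII:14795088-14795188, plus strand): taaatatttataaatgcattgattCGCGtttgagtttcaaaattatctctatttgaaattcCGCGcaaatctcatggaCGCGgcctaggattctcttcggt
eif-1.A (chrIV:4810532-4810632, plus strand): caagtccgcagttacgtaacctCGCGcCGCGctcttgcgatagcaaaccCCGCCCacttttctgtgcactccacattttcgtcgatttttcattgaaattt
eif-2Bgamma (chrII:6968487-6968587, minus strand): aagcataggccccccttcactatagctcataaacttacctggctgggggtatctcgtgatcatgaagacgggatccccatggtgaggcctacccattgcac

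**Figure D1:**
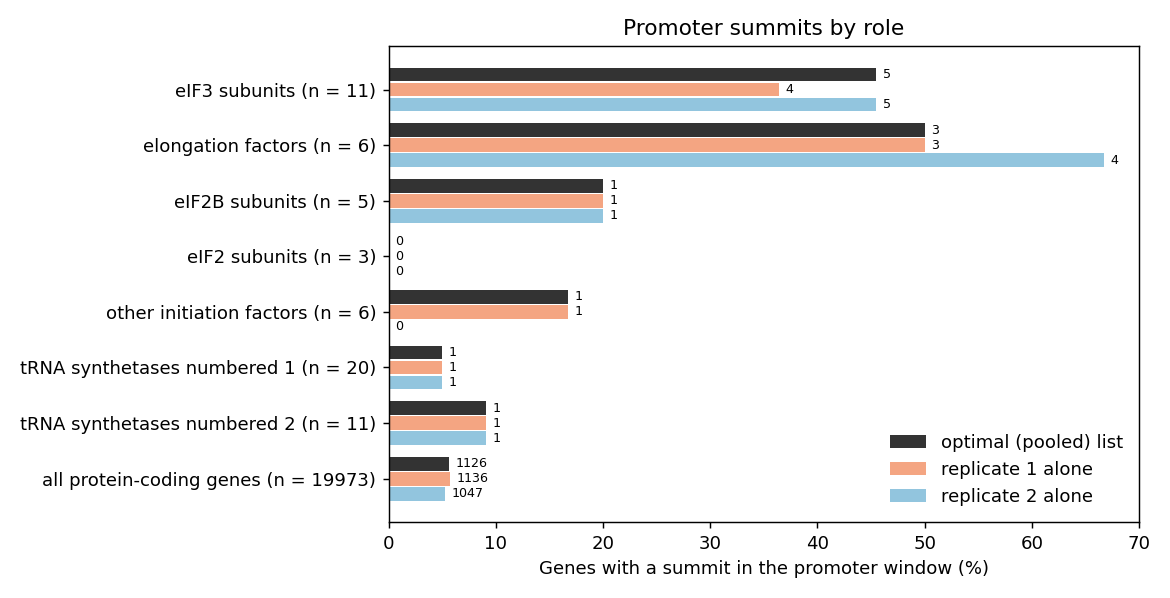
Percentage of genes in each role group (y axis, with the number of genes) with a summit in the promoter window (x axis), in the optimal list and in the 1925 strongest regions of each replicate; the number at each bar is the count of genes. The eIF3 subunits reach 5, 4 and 5 of 11 and the elongation factors 3, 3 and 4 of 6, while both synthetase groups stay at 1 gene in every list.

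The role counts were close in each replicate's own list. Among the 1925 strongest regions of replicate 1, as many as there are optimal peaks, 11 of the 62 genes had a promoter summit, against 5.69% of all genes. In replicate 2 there were 12, against 5.24%. The factors gave 9 of 31 and 10 of 31 and the synthetases 2 of 31 in each. Of the 12 genes, 9 had a promoter summit in both replicate lists. They were the only members to do so (9 of 62, against 816 of all 19973 protein-coding genes). Replicate 1 added eif-2D and lacked eif-3.B and eif-1.A. Replicate 2 added tars-1 and eef-1G and lacked nars-1 and eif-1.A. The optimal list was made from the same replicates pooled, so this overlap is partly built in.

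Among the eIF3 subunits, eif-3.C, whose product is a core subunit, had the strongest peak of all the factors (chrI:9979753-9980056). Its signal, the authors' peak score on a scale that is not stated, was 749 in the pooled list, 502 in replicate 1 and 242 in replicate 2. Signals rank peaks only within 1 list, and its ranks were 98 (pooled), 92 and 136. The summit lay 229 bp upstream of the 5′ end, between eif-3.C and its neighbour sys-1, which ends 400 bp upstream on the same strand. Only eif-3.C and eif-2Bgamma, of the 12, had a gene so placed within 500 bp.

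The other 4 eIF3 peaks were weaker and less evenly ranked. At eif-3.D, whose human counterpart can contact the mRNA cap, the signals were 338 pooled, 248 in replicate 1 and 101 in replicate 2, with ranks of 678, 558 and 1071 (chrIII:8971596-8972065). At eif-3.I, a WD-repeat subunit, they were 294, 165 and 125, with ranks of 937, 1441 and 633 (chrI:2485413-2485882). At eif-3.E they were 279, 208 and 83.1, with ranks of 1049, 861 and 1695 (chrI:10642265-10642734). Replicate 1 thus ranked eif-3.D and eif-3.E above eif-3.I, and replicate 2 placed eif-3.I first of the 3. At eif-3.B, a scaffold subunit, the signals were 233, 122 and 105, with ranks of 1582, 2946 and 957 (chrII:14794903-14795372), so it passed rank 1925 in replicate 2 alone. Measured from the 5′ ends, the summits of the 5 eIF3 genes with a peak lay 213 to 266 bp away, all upstream.

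The 6 eIF3 genes without an optimal summit split evenly. In the pooled list of 30000 peaks and background regions, eif-3.G (signal 148), eif-3.J (117) and eif-3.H (108) had a region in the window, all under the lowest optimal signal of 212. No pooled region lay in the windows of eif-3.F, eif-3.K and eif-3.L.

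Both genes for eEF1A, the factor that delivers charged tRNA, carried a peak, and so did eef-2, the translocation factor. At eef-1A.2 the signals were 462 pooled, 311 in replicate 1 and 157 in replicate 2, with ranks of 338, 328 and 377 (chrX:7823085-7823554). It was the only member on the X chromosome. At eef-1A.1 they were 318, 230 and 85.9, with ranks of 789, 659 and 1562 (chrIII:6972023-6972190). The peak at eef-1A.2 was higher than that at eef-1A.1 in all 3 lists. The eEF1A genes encode closely similar proteins, but the printed windows share no stretch longer than 7 bp, and every 32-base word within 100 bp of either summit occurs once in the genome. At eef-2 the signals were 270, 187 and 84.4, with ranks of 1130, 1067 and 1631 (chrI:9163281-9163750).

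The eEF1B genes had no optimal summit. The region in the window of eef-1B.1 had a pooled signal of 146, and eef-1B.2 had none. For eef-1G, which encodes the gamma subunit, the lists differed outright: replicate 2 held a region 87 bp upstream with a signal of 81.7 and rank 1772, while neither the pooled list nor that of replicate 1 held any region in the window.

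**Figure D2:**
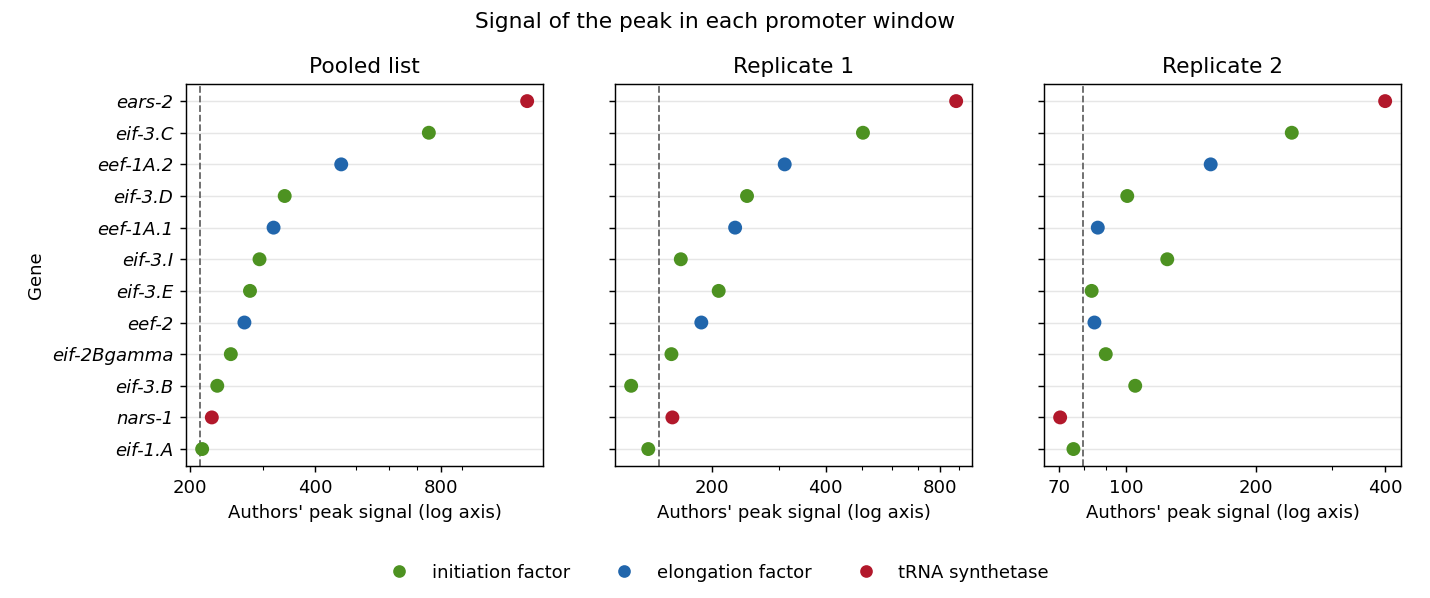
Authors' peak signal (x axis, log scale, separate for each list) of the peak at each of the 12 genes (y axis, ordered by pooled signal) in the pooled list and each replicate; dashed lines mark the signal of rank 1925 in that list. ears-2, eif-3.C and eef-1A.2 are the 3 highest in every panel, eif-3.B lies under the line in replicate 1, nars-1 in replicate 2 and eif-1.A in both.

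The remaining initiation factors were represented by eif-1.A, near the lower end of the optimal list, and by eif-2Bgamma. The eif-1.A gene, for the factor that with eIF1 keeps the ribosome scanning, had signals of 214 pooled, 136 in replicate 1 and 75.4 in replicate 2 (chrIV:4810347-4810816). Its ranks were 1893, 2264 and 2187, so it entered the optimal list from the pooled data and passed rank 1925 in neither replicate. At eif-2Bgamma the signals were 251, 156 and 89.7, with ranks of 1331, 1641 and 1398 (chrII:6968302-6968771). That summit was the most distant of the 12, at 889 bp upstream. It lay in an intron of the neighbouring gene C15F1.5 and within 200 bp of sup-39, known as a U1 snRNA gene, and of mir-1831, both annotated as snRNA. Only 71.8% of the 32-base words within 100 bp of it occur once in the genome, against 100% at each of the other 11 summits. Whether reads of other copies were placed at the eif-2Bgamma summit was not tested.

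For eIF2, the 0 of 3 count went with weak or missing regions. The eif-2gamma window held a pooled region of signal 72.8, and those of eif-2alpha and eif-2beta held none. Of the other eIF2B genes, eif-2Bbeta had a region of signal 103, and eif-2Balpha, eif-2Bdelta and eif-2Bepsilon had none. By contrast all 6 genes grouped as other initiation factors had a pooled region, against 33.3% of all genes. Those under the threshold were eif-4A3, a helicase of the exon junction complex (signal 188), eif-2D (188), eif-2A (169), eif-6, which keeps ribosomal subunits apart (140), and eif-1 (101).

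Among the synthetases, ears-2, for the mitochondrial glutamyl-tRNA synthetase, and nars-1, for the cytosolic asparaginyl-tRNA synthetase, had an optimal summit. The ears-2 peak was the strongest in the set (chrIV:390316-390684). Its signals of 1289 pooled, 885 in replicate 1 and 400 in replicate 2 ranked 18, 18 and 34, ahead of eif-3.C in every list. The nars-1 peak had signals of 226, 157 and 70.3, with ranks of 1702, 1623 and 2653 (chrI:7090238-7090707), so it passed rank 1925 in replicate 1 alone. The synthetases therefore held the highest peak of the 62 genes and one of the 3 lowest of the 12.

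Regions of any signal, the 12 optimal peaks included, were about as frequent at factors as at synthetases. A pooled region lay in the window of 40 of the 62 genes (64.5%), against 33.3% of all genes, and these were 21 factors and 19 synthetases. The median signal of the strongest region per gene was 188 for the 21 factors, 106 for the 19 synthetases and 110 for all 6649 protein-coding genes with one. The 17 synthetases with a region but no optimal summit ran from 65.8 at qars-1 to 194 at tars-1, with a median of 91.5. The 11 factors in the same position ran from 72.8 at eif-2gamma to 188 at eif-4A3, with a median of 140. The other 10 factors without an optimal summit had no pooled region. The other 12 synthetases had no pooled region: dars-1, dars-2, ears-1, hars-1, kars-1, lars-1, lars-2, pars-1, rars-2, vars-1, wars-1 and yars-1.

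At the threshold, eif-1.A (214) and nars-1 (226) lay just inside the lowest optimal signal of 212. Just outside were tars-1, for the threonyl-tRNA synthetase (pooled signal 194, ranks 2324 pooled, 3922 in replicate 1 and 1680 in replicate 2), and eif-4A3 (188, ranks 2524, 3753 and 2319). Next came eif-2D (188, ranks 2527, 1841 and 9480), eif-2A (169, ranks 3288, 3565 and 3185) and iars-2 (158, ranks 3863, 3272 and 7428). The replicate 1 region matched at iars-2 lay outside the promoter window, and the strongest inside it had rank 8044. The replicates placed these genes differently, and tars-1 and eif-2D each passed rank 1925 in 1 replicate, while eif-1.A passed it in neither.

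**Figure D3:**
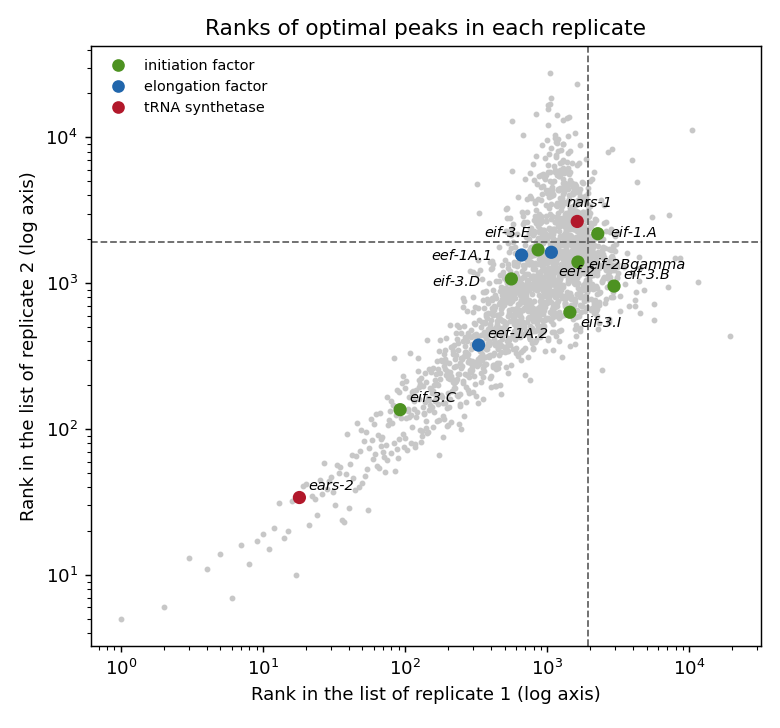
Rank of every optimal peak found in both replicate lists (grey points), with the 12 members coloured by class and named, in replicate 1 (x axis) and replicate 2 (y axis), both log scales; dashed lines mark rank 1925. The 9 members at the lower left of both lines include ears-2 at ranks 18 and 34, and eif-1.A lies beyond both lines at 2264 and 2187.

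Of the 12 member peaks, 9 (75%) were matched within 100 bp by a region of rank 1925 or better in each replicate. The share was 66.6% of all 913 optimal peaks in promoter windows and 63.4% of all 1925 optimal peaks. The members' median signal of 286 lay beside 298 for those 913 peaks.

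All 12 summits lay upstream of the 5′ end, a direction largely built in by a window of 1000 bp upstream and 100 bp downstream. The distance ran from 15 bp at eef-2 and 37 bp at ears-2 to 411 bp at nars-1, with eif-2Bgamma apart at 889 bp. The median was 260 bp upstream, against 285 bp over the 1126 genes with an optimal promoter summit. The summit lay between protein-coding genes in 11 cases and in an intron in 1. At eef-1A.1 it lay within 200 bp of the miRNA gene cel-mir-5549, and without these and other summits near small RNA genes 10 members remained. Of the 50 genes without an optimal promoter summit, 6 had an optimal summit within 5000 bp of a 5′ end. The share of all genes at that distance was not computed, so the count has nothing to be set against. The nearest of the 6 was at fars-1, 1358 bp downstream of the 5′ end, with a signal of 690 and rank 123.

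**Figure D4:**
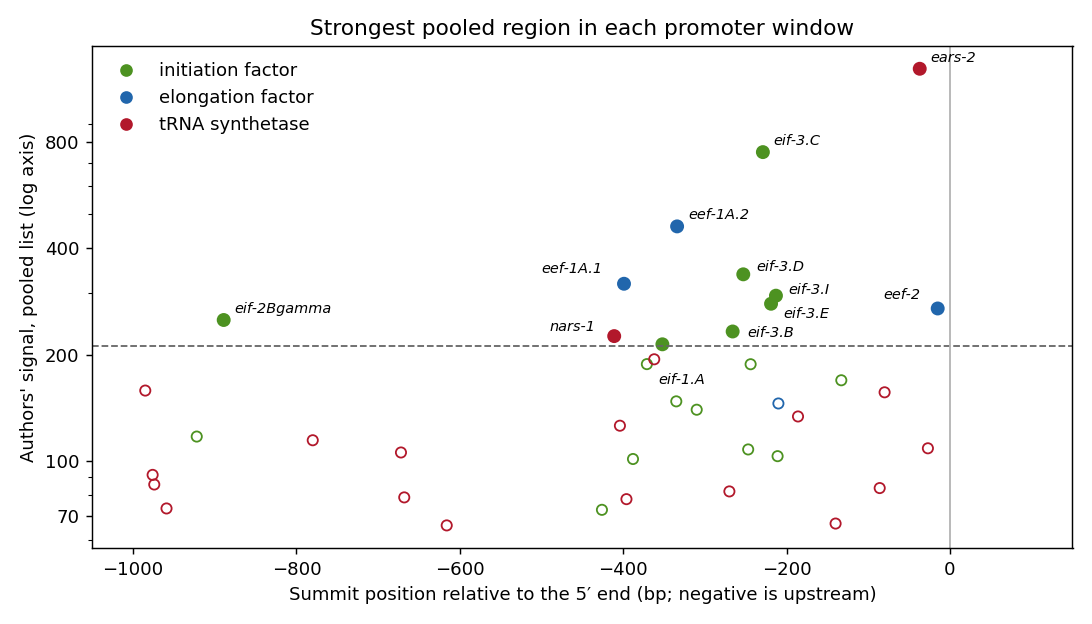
Position of the strongest pooled region in each promoter window (x axis, bp from the 5′ end) against its pooled signal (y axis, log scale), for the 40 genes with one; filled points are the 12 optimal summits, open points lie below the lowest optimal signal of 212 (dashed line). All filled points but eif-2Bgamma lie within 411 bp upstream, and the open points under the line reach 985 bp upstream.

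A peak beside one of these genes was often a peak beside another gene too. In 8 of the 12 cases (66.7%) the summit also lay in the window of a neighbour transcribed away from the member. Of all optimal peaks in promoter windows, 28.3% lay in more than 1 gene's window. That share counts each peak once and takes neighbours on either strand. A shared peak can be reached through each of its genes, so the shares are not like for like. The ears-2 summit was 37 bp from its own 5′ end and 55 bp from that of uncp-18, a gene for a syntaxin-binding protein. The eif-3.D summit was nearer to R08D7.4 (61 bp), the eef-1A.1 summit to rfc-4, a replication clamp loader gene (142 bp), and the nars-1 summit to nduf-6, a respiratory complex I gene (267 bp). The other neighbours were abtm-1, a mitochondrial transporter gene, at eif-3.I (257 bp), clsp-1, the claspin gene, at eef-2 (250 bp), B0511.17 at eif-3.E (529 bp) and H06H21.37 at eif-1.A (608 bp). With each summit given to the nearest gene alone, 9 of the 12 remained.

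Gene arrangement differed between the set and the genome. A head-to-head upstream neighbour was counted at any distance, up to 4824 bp among the members (pars-1). One was found for 34 of the 62 genes (54.8%) and for 42.2% of all genes. Among such genes the optimal list had a promoter summit at 8 of the 34 members (23.5%), against 8.32% of all genes so arranged. With a neighbour on the same strand more than 500 bp away, eef-1A.2 and eif-3.B were the 2 of 10 members with a summit, against 3.91% of all such genes. With one within 500 bp, as between genes of an operon, it was 2 of 15, against 2.94%. Of the 3 members whose 5′ end was overlapped by another gene none had a summit, against 4.46%. Of the 16 head-to-head synthetases 2 had a summit, and of the 18 head-to-head factors 6 did.

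In G+C content the summit sequences resembled those of other promoter peaks. The 101-bp windows had a median G+C content of 49.5%, against 33.7% in windows centred 350 bp to each side, and 10 of the 12 exceeded their flanks. Over all 913 promoter peaks the medians were 50.5% and 36.1%, and 90.6% exceeded the flanks. The ears-2 and eif-3.C windows had the highest content, at 56.4% each. The eif-3.D window (38.6% against 49.0% in its flanks) and the nars-1 window (35.6% against 37.1%) went the other way.

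None of the 12 windows held CAATTAA, a site for HMX proteins, which occurred in 1.86% of the promoter peaks and in 3.24% of 101-bp promoter sequences centred 250 bp upstream of every gene's 5′ end. Motifs were sought on both strands. Nor did any hold TAATTA (1.97% of promoter peaks and 6.05% of promoter sequences), TTTCAG, the splice acceptor consensus (4.71% and 17.7%), CTGCGTC (9.97% and 1.38%) or TGACGT (5.15% and 3.32%). GAGAGA was in the eef-1A.1 window alone (24.1% and 6.49%) and GGGCGG in that of eif-1.A alone (10.7% and 2.26%). Matches of different motifs may overlap. CGCG, looked for after the windows had been read and able to share an end base with GGGCGG, was in 6 of the 12, against 45% of promoter peaks and 10.6% of promoter sequences. The 6 were ears-2, eif-3.C, eif-3.D, eif-3.I, eif-3.B and eif-1.A.

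Other genes of the translation machinery had a summit less often than the 31 factors (32.3%). Their share was above that of the synthetases (6.45%) and of all protein-coding genes (5.64%). It was close to the 19.4% of the whole set, but that value mixes factors and synthetases. All but 1 of these other genes were listed as factors or regulators, so the factors are the nearer comparison. The shares were not tested against each other. Of 38 symbols listed for factors under other names, 29 matched a gene and 6 of these (20.7%) had an optimal promoter summit. The strongest was erfa-3, for a termination factor GTPase, with signals of 565 pooled, 373 in replicate 1 and 197 in replicate 2 (chrV:11113253-11113491). Next came larp-1, for a La-related RNA-binding protein (522, 356 and 162), and iff-2, an eIF5A gene (453, 294 and 156). The others were ife-4, an eIF4E cap-binding gene (406, 267 and 131), ifet-1, a translational repressor (371, 226 and 146), and pab-2, for a poly(A)-binding protein (217, 157 and 83.4). Each of the 6 ranked 1853 or better in all 3 lists. None of 4 genes for mitochondrial translation factors had a summit, against 5.64% of all protein-coding genes. So few genes do not set them apart from that share.

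For comparison, 30 of 81 ribosomal protein genes (37%) and 2 of 33 proteasome genes (6.06%) had one. The factors, at 32.3%, were nearer to the first and the synthetases, at 6.45%, to the second. In the lists of replicates 1 and 2 the shares were 38.3% and 35.8% for ribosomal proteins, 29% and 32.3% for the factors, 12.1% and 6.06% for the proteasome and 6.45% in both for the synthetases. The synthetases thus lay just above the proteasome in the optimal list and in replicate 2, and below it in replicate 1. These differences between groups were not tested.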

How the data were processed

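The deposited files are narrowPeak lists. Per the file descriptions deposited with them, they were made from both replicate alignments with a control alignment. The ce11 lists were used: 1 list of 30000 regions per replicate, a pooled list of 30000, and 1925 optimal peaks thresholded by the irreproducible discovery rate, which match the 1925 pooled regions of highest signal. The peak signal is the authors' deposited score, whose scaling is not stated, and was used only within a list. The aligner, the peak caller and the threshold used were not given in the sources at hand. Depth is unknown, so no counting interval was derived. The ce10 lists were not used, since no ce10 annotation was at hand.

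Genes and 5′ ends came from the Ensembl release 115 annotation of WBcel235, which is ce11, and sequence from the RefSeq copy of that genome. Summits were taken as the start plus the deposited offset. A region was matched between lists when its summit lay within 100 bp, and the strongest match was taken. Scripts used Python 3.11.15, pandas 2.3.3 and numpy 2.4.6. The gene assignment was tested on simulated summits. The members, role lists and motifs were chosen with earlier results of these data known. Named are all members with an optimal promoter summit, the 5 nearest below the threshold, other translation genes with a summit and genes sharing a member's peak. Further members are named with their role group. Alternatives were another window, list, threshold, assignment, match distance and motif window.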

Additional observations from a re-analysis of the deposited data

How the results depend on the processing

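No paired analysis was possible because there was 1 group. The count of 12 genes stayed within 1.5 times under 500 bp (11, without eif-2Bgamma; 4.21% of all genes) and 2000 bp upstream (12; 7.88%), nearest-gene assignment (9; 4.79%), removal of summits near small RNA genes (10, without eif-2Bgamma and eef-1A.1; 5.23%) and the list of replicate 2 (12; 5.24%) or 1 alone (11; 5.69%). The counts of 10 factors and 2 synthetases did so too under both windows and both replicate lists. Among the 962 strongest optimal peaks there were 6 genes, 5 factors and 1 synthetase, against 3.09% of all genes, since fewer peaks were used. In all regions of the pooled list there were 40, against 33.3%. The 9 peaks found in both replicates became 8 at 50 bp, 9 for any overlap and 12 against all regions, where 51%, 70.2% and 94% of all optimal peaks were found in both. At least 1 of the 7 planned motifs was at 2 of 12 summits within 50 bp, at 1 within 25 bp and at 8 within 100 bp, against 45.4%, 25.8% and 68.9% of all optimal peaks. Depth is unknown, so the lack of a peak leaves binding at that gene undecided.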
